A study of Mus musculus with 6 samples.

Results

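The results below follow 40 genes of the cell cycle and DNA replication through 6 primary cultures of mouse cerebral cortex. The genes were chosen by name, with earlier results of these data known, so their counts beside all genes are a description. They comprise 12 S-phase genes (the Mcm, Gins and Rrm genes, Pcna and Tyms), 5 genes of the G1/S transition and 23 genes used in mitosis, out of 26157 genes tested. Every probe whose gene name matched was taken, which gave 73 probes, of which 69 were bright enough to test. All 40 genes were represented among the tested probes.

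Cortical cells of C57/B6 embryos at embryonic day 16 were grown in Neurobasal medium with B27 plus. The 3 irradiated cultures received 3.1 THz radiation, which lies between the microwave and infrared bands, in 1 session of 3 hours a day on days 5 to 9 in vitro. The 3 control cultures came from the same kind of preparation and were not irradiated. RNA of each culture was taken at day 12 and hybridised to a 1-colour Agilent array, and the titles number the samples 1 to 3 within each group. What the number stands for is not stated, nor whether the samples came from separate dissections, so the p-values reflect how far these samples scatter, and that scatter may be technical.

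A dividing cell first switches on E2F target genes, which license and copy the DNA. Later it switches on a second wave of genes that condense the chromosomes, build the spindle and separate the daughter cells, and whose promoters often hold CCAAT boxes and a cell cycle homology region. Neurons in culture have left the cell cycle, so in a cortical culture these transcripts are usually contributed by glia, microglia and remaining progenitors. In bulk RNA, fewer cells of a type and less RNA per cell cannot be told apart.

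Levels are log2 values of the processed signal, set against the 75th percentile of the array. They can be compared between arrays for 1 gene but not between genes, because probes differ in brightness. The 75th percentile itself lay between 635 and 892 signal units on the irradiated arrays and between 320 and 708 on the control arrays, and no spot was saturated. Control 1 was the dimmest array, and on the first principal component, with 54.5% of the variation, it stood at -115 while the other 5 arrays lay between -3.91 and 47.6. Of the 8 neuronal markers 8 were measured, and their summed linear level relative to the 75th percentile was 301 to 490 in irradiated cultures and 451 to 523 in controls. For 39 of the 40 genes the probe used was well above background on all 6 arrays. The exception was Ccne2, a cyclin of the G1/S transition, which was well above background on 2 of 3 irradiated and 1 of 3 control arrays.

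The first question was whether the genes of division were expressed differently in irradiated and control cultures. At an adjusted p under 0.05 limma called 0 of the 40 genes, against 0% of all genes tested, and the smallest adjusted p among the 40 was 0.504. At an unadjusted p under 0.05 the count was again 0 of 40, where the share over all genes was 9.15% (2.37% higher and 6.78% lower in irradiated cultures). The median difference, irradiated minus control, was -0.17 for the S-phase genes, -0.16 for the G1/S genes and 0.06 for the mitotic genes, beside -0.13 for all genes. These medians moved with single arrays: without control 1 they were 0.08 for the S-phase and 0.36 for the mitotic genes, and without control 3 the mitotic median was -0.30. Without irradiated 1 the S-phase median was -0.37 and the mitotic median -0.28.

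Among the S-phase genes, 1 of 12 had a value above 0 for irradiated minus control, in a range from -0.29 to 0.04, beside 34.1% of all genes. Gins1, a subunit of the GINS complex of the replicative helicase, measured -1.52, -1.88 and -1.68 on irradiated arrays 1 to 3, against -1.11, -1.55 and -1.53 on control arrays 1 to 3. Its difference of -0.29 was the farthest from 0 in this list (95% interval -0.81 to 0.22, adjusted p 0.623), and irradiated 1 lay above controls 2 and 3. A second Gins1 probe differed by 0.36. Pcna, the sliding clamp of DNA polymerase, measured 3.21, 3.28 and 3.41 in irradiated cultures, against 3.42, 3.45 and 3.48 in controls. All 3 irradiated values of Pcna lay below the 3 controls, which was so for 1 of the 40 genes and for 12.2% of all genes. For 0 of the 40 did all 3 irradiated values lie above the controls, against 3.85% of all genes. The Pcna difference was -0.15 (95% interval -0.57 to 0.27, adjusted p 0.788).

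Mcm2, a subunit of the MCM2-7 helicase, measured 0.26, -0.49 and -0.04 in irradiated cultures and 0.56, -0.29 and 0.04 in controls. In both groups culture 2 was the lowest, and the groups overlapped (difference -0.19, 95% interval -0.90 to 0.52, adjusted p 0.849). The other 5 MCM genes differed by -0.24 (Mcm5), -0.22 (Mcm7), -0.09 (Mcm3), -0.05 (Mcm6) and 0.04 (Mcm4). Rrm1 and Rrm2, the subunits of ribonucleotide reductase that supplies deoxynucleotides, differed by -0.21 each. Tyms, thymidylate synthase, differed by -0.15, and Gins2 by -0.13. None of these intervals excluded 0.

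Of the G1/S genes, Ccnd1, the cyclin that answers to growth factors, measured 3.86, 2.61 and 3.20 in irradiated cultures, against 4.05, 2.63 and 3.13 in controls. Its difference was -0.05 (95% interval -1.10 to 1.0, adjusted p 0.983), and same-numbered cultures had nearly equal values. Ccne2 measured -5.53, -6.46 and -5.72 in irradiated cultures and -5.61, -5.45 and -5.35 in controls, so close to background that its difference of -0.44 (95% interval -1.10 to 0.22, adjusted p 0.565) rests on few measured arrays. Ccne1, which with Cdk2 drives entry into S phase, differed by -0.27. Cdc6, a loader of the MCM helicase, differed by -0.16, and Cdc45, which completes the active helicase, by 0.17.

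Among the mitotic genes, 14 of 23 had a value above 0, in a range from -0.67 to 0.60, beside 34.1% of all genes. Kif23, a kinesin of the central spindle, had the smallest p of the 40 genes. It measured -2.51, -2.61 and -2.27 in irradiated cultures and -1.24, -1.81 and -2.35 in controls. Control 3 lay within the irradiated range while controls 1 and 2 lay above it (difference -0.67, 95% interval -1.38 to 0.05, adjusted p 0.504). The other tested Kif23 probes differed by 0.22 and -0.09, so the value depends on the probe. Its probe lies at 61770729 to 61770788 on chromosome 9 of build mm9, per the file headers.

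Bub1b, a kinase of the spindle checkpoint, measured -1.99, -2.60 and -3.63 in irradiated cultures and -3.17, -3.15 and -3.71 in controls (difference 0.60, 95% interval -0.38 to 1.59, adjusted p 0.597). Aurkb, the kinase of the chromosomal passenger complex, measured -1.81, -2.46 and -2.98 in irradiated cultures and -2.59, -2.83 and -3.07 in controls (difference 0.42, 95% interval -0.35 to 1.18, adjusted p 0.641). Cenpf, a kinetochore protein, measured 0.11, -0.45 and -0.88 in irradiated cultures, against -0.65, -0.65 and -0.89 in controls (difference 0.32, 95% interval -0.34 to 0.99, adjusted p 0.679). For Bub1b, Aurkb and Cenpf the irradiated cultures 1 and 2 were the highest of the 6, while irradiated 3 lay within the control values. Mki67, the standard marker of cycling cells, measured 1.63, 0.66 and 0.31 in irradiated cultures, against 1.44, 0.26 and 0.25 in controls (difference 0.22, 95% interval -0.84 to 1.28, adjusted p 0.895). Top2a, the topoisomerase that untangles chromosomes, measured 1.04, 0.03 and -0.32 in irradiated cultures and 1.0, -0.07 and -0.39 in controls (difference 0.07, 95% interval -1.04 to 1.18, adjusted p 0.974). For both Mki67 and Top2a each irradiated culture lay above the control of the same number, and the spread within a group was far larger than that difference.

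The same comparison with the sample number as a block gave 1 of 40 genes at an unadjusted p under 0.05, against 9% of all genes, and no gene with an adjusted p under 0.05. That gene was Cdk1, the kinase that drives entry into mitosis, with a difference of 0.53 and a blocked p of 0.0306 in limma (adjusted 0.465). Without the block its 95% interval ran from -0.77 to 1.83. Of the 18 genes with more than 1 tested probe, 10 had probes that disagreed in the sign of irradiated minus control.

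**Figure D1:**
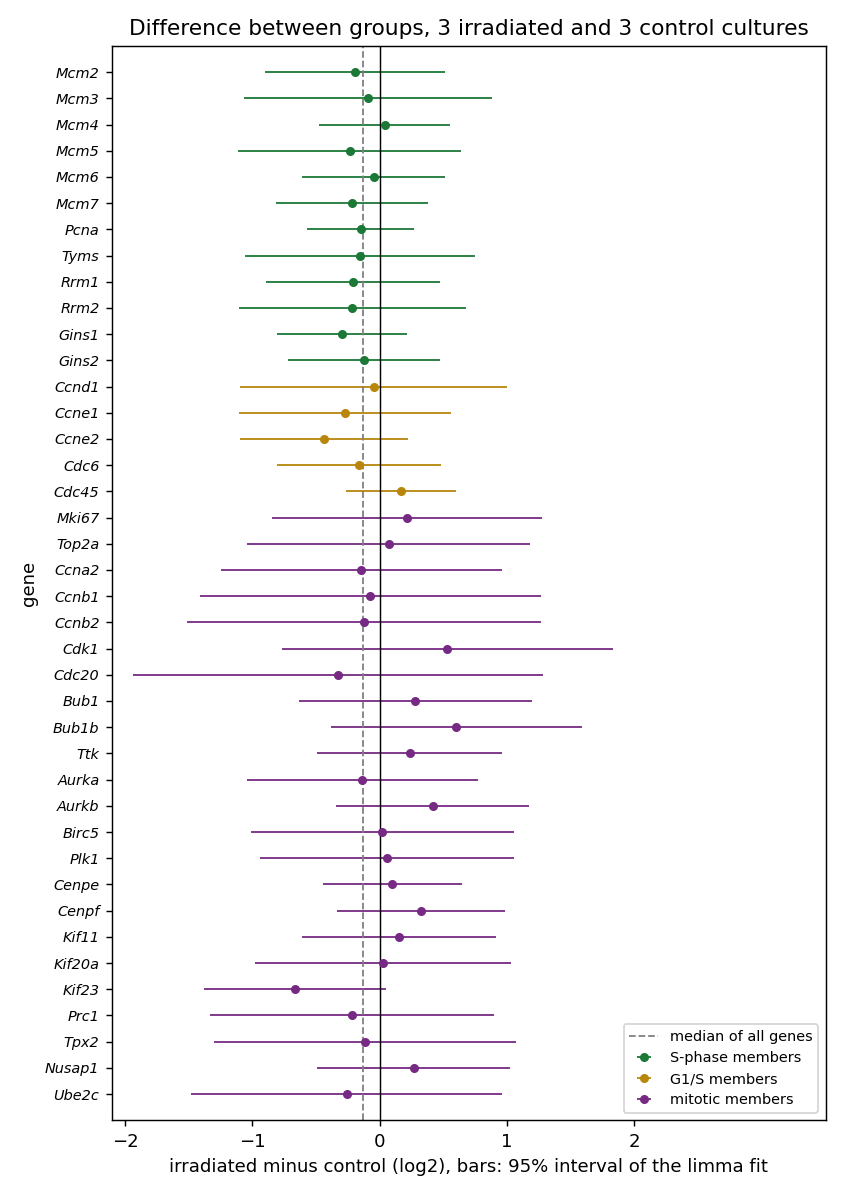
Difference between irradiated and control cultures (log2, horizontal axis) for each of the 40 genes (vertical axis), with 95% intervals from limma on 3 arrays per group and the median of all genes (-0.13) as a dashed line. Every interval crosses 0, the S-phase differences lie between -0.29 and 0.04, and the mitotic ones spread from -0.67 to 0.60.

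The arrays of both groups were next compared by their number, with the group as a term in the model. In the limma F test, 0 of the 40 genes had an adjusted p under 0.05, against 0.619% of all genes, and the smallest adjusted p was 0.0841. At an unadjusted p under 0.05 the count was 23 of 40, against 15.9% of all genes. It comprised 17 of 23 mitotic, 4 of 12 S-phase and 2 of 5 G1/S genes. Both arrays numbered 1 lay above the other 4 for 32 of the 40 genes, against 13.1% of all genes.

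**Figure D2:**
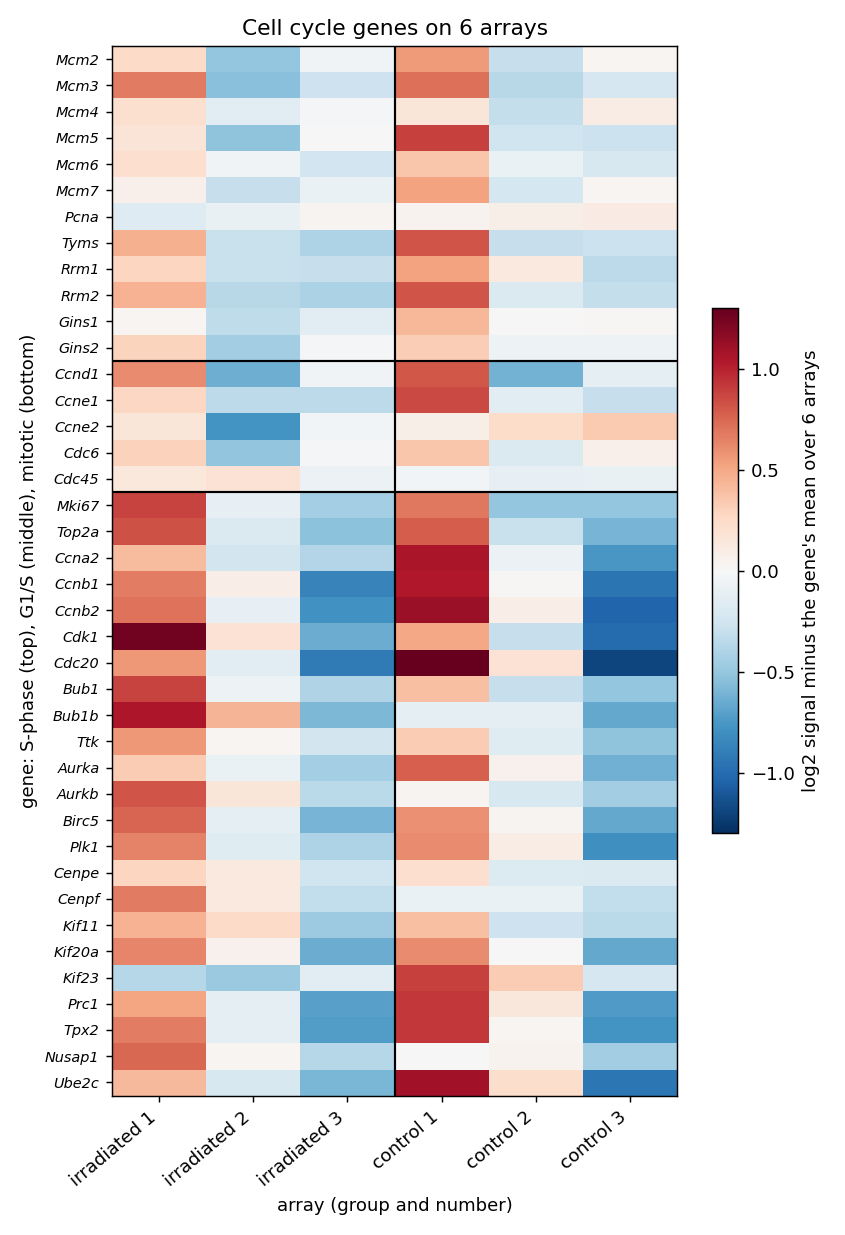
Level of the 40 genes (rows, in the order S-phase, G1/S and mitotic) on the irradiated and control arrays (columns), as log2 signal minus the gene's mean over 6 arrays, with red above and blue below that mean. Both columns numbered 1 are above the gene's mean for most genes, and among the mitotic genes both columns numbered 3 are the lowest for 21 of 23.

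For the S-phase genes the difference lay between number 1 and the other numbers. Both arrays numbered 1 were the highest for 11 of 12, with Pcna as the exception. The median was 0.56 for number 1 minus number 2, and 0.46 for number 1 minus number 3, beside -0.03 and -0.04 over all genes. Mcm3, an MCM subunit, measured 1.12, -0.10 and 0.17 on irradiated arrays 1 to 3 and 1.17, 0.08 and 0.23 on control arrays 1 to 3. In both groups the array numbered 1 was the highest (number 1 minus 2, 1.16, adjusted p 0.0797). Rrm2 measured 2.22, 1.41 and 1.37 on irradiated arrays and 2.59, 1.58 and 1.47 on control arrays, with both arrays numbered 1 highest (number 1 minus 3, 0.99, 95% interval 0.46 to 1.52, adjusted p 0.0941). Tyms followed with 0.98 for number 1 minus 3, although 1 of its 3 probes gave -0.14. Pcna gave -0.13 for the same contrast, and its 6 values spanned 3.21 to 3.48.

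Among the G1/S genes, Ccnd1 had the smallest p. Its values above were highest on both arrays numbered 1 and lowest on both numbered 2 (number 1 minus 2, 1.33, adjusted p 0.069; number 2 minus 3, -0.54, 95% interval -1.08 to -0.01). Ccne1 was also highest on both arrays numbered 1, and gave 0.88 for number 1 minus 3. Cdc6 gave 0.31, Cdc45 0.13 and Ccne2 -0.03 for that contrast. None of the 5 passed an adjusted threshold.

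For the mitotic genes, number 3 stood apart as well as number 1. Both arrays numbered 1 were the highest for 18 of 23, and both arrays numbered 3 were the lowest for 21 of 23, against 7.32% of all genes. In the contrast of number 1 minus 3, 2 of the 23 passed an adjusted p of 0.05 in limma, against 1.15% of all genes called higher and 0.294% called lower. Those were Cdk1 and Ccnb1, the kinase and the cyclin of the complex that starts mitosis. At an unadjusted p under 0.05 the higher count was 20 of 23 mitotic, 5 of 12 S-phase and 2 of 5 G1/S genes, against 9.39% of all genes, and 0 of the 40 were lower, against 9.85%.

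Cdk1 measured -1.51, -2.58 and -3.42 on irradiated arrays 1 to 3, against -2.26, -3.07 and -3.77 on control arrays 1 to 3. It was 3.26-fold higher on the arrays numbered 1 than on those numbered 3 (log2 difference 1.71, 95% interval 1.15 to 2.26, adjusted p 0.0452). Its probe lies within 68805423 to 68807832 on chromosome 10 of mm9. Ccnb1 measured 0.96, 0.37 and -0.58 on irradiated arrays and 1.33, 0.30 and -0.66 on control arrays, which is 3.39-fold higher on number 1 than on number 3 (log2 difference 1.76, 95% interval 1.17 to 2.35, adjusted p 0.0471). In each group the culture numbered 1 was highest and that numbered 3 lowest for both genes. All 4 Ccnb1 probes gave the same direction, from 1.37 to 1.81; the probe used lies at 101548722 to 101548781 on chromosome 13 of mm9. The calls depended on single arrays and on the processing. With any 1 of the 6 left out, the adjusted p of Cdk1 lay between 0.052 and 0.22. That of Ccnb1 was 0.0327 without irradiated 1 and between 0.0613 and 0.24 without each of the others. The Cdk1 call was also lost with normexp background correction (1.18, adjusted p 0.0632), without the group term (0.0735), with every probe a feature (0.0698) and with no filter on dim probes (0.124). The Ccnb1 call was lost with no filter (0.126), and none of its 4 probes passed with every probe a feature.

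Other mitotic genes had values of like size just short of the threshold. Ccnb2, the second B-type cyclin, measured 1.17, 0.36 and -0.32 on irradiated arrays, against 1.59, 0.55 and -0.56 on control arrays (number 1 minus 3, 1.82, adjusted p 0.0503). Tpx2, which activates Aurora A on the spindle, measured -0.58, -1.36 and -1.97 on irradiated arrays and -0.32, -1.21 and -2.02 on control arrays (1.54, adjusted p 0.0503). Both genes were highest on number 1 and lowest on number 3 in both groups. Prc1, which bundles midzone microtubules, measured 1.13, 0.49 and -0.09 on irradiated arrays and 1.54, 0.77 and -0.12 on control arrays (1.44, adjusted p 0.0578). Kif20a, a kinesin of cytokinesis, measured -0.88, -1.46 and -2.16 on irradiated arrays and -0.90, -1.50 and -2.17 on control arrays (1.28, adjusted p 0.0578). Its same-numbered cultures were nearly equal in the groups. Top2a gave 1.38 (adjusted p 0.0534) and Mki67 1.25 (adjusted p 0.0639), with the per-array values given above.

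The remaining mitotic genes all gave values above 0 for number 1 minus 3. Cdc20, the activator of the anaphase-promoting complex, had the value farthest from 0 among the 40 genes at 2.09 (4.25-fold, adjusted p 0.0602). Ube2c, the ubiquitin-conjugating enzyme of that complex, gave 1.52. The checkpoint kinases Bub1, Bub1b and Ttk gave 1.08, 1.09 and 0.83. The mitotic kinases Plk1, Aurka and Aurkb gave 1.23, 1.08 and 0.83, and Birc5 (survivin), a partner of Aurkb, gave 1.31. Ccna2, the cyclin of S phase and G2, gave 1.31. The kinetochore genes Cenpe and Cenpf gave 0.47 and 0.61, the spindle kinesin Kif11 gave 0.83, and Nusap1, which links spindle microtubules to chromosomes, gave 0.78. Kif23 had the lowest value at 0.44 (95% interval -0.51 to 1.38), while its other tested probes gave 0.99 and 1.31.

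**Figure D3:**
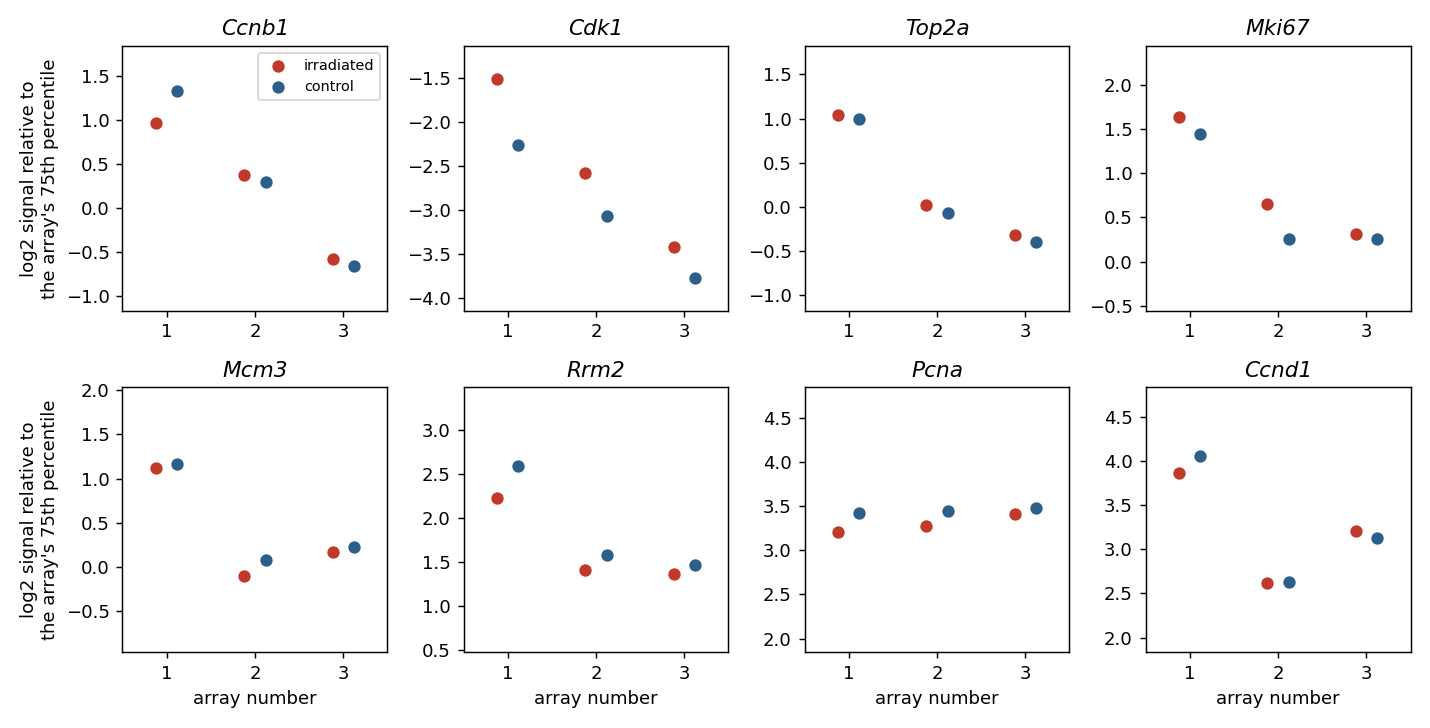
Level (vertical axis, log2 against the 75th percentile of the array, 3 log2 units in every panel) by array number (horizontal axis) for 8 genes, with 1 point per array, irradiated in red and control in blue. Ccnb1, Cdk1 and Top2a are highest on number 1 and lowest on number 3 in both groups, Mcm3 and Rrm2 are highest on number 1, and Pcna lies between 3.21 and 3.48.

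The S-phase and mitotic genes were also set side by side between the arrays numbered 2 and 3. The median of number 2 minus 3 was -0.16 for the S-phase genes, in a range from -0.39 to 0.24, and 0.52 for the mitotic genes, in a range from 0.10 to 1.08, beside 0.003 for all genes. The S-phase median was -0.082 without irradiated 2, -0.011 without irradiated 3 and -0.032 with the mean of a gene's probes. Irradiated 2 lay above irradiated 3 for 22 of 23 mitotic and 4 of 12 S-phase genes, against 35.4% of all genes. Control 2 lay above control 3 for 23 of 23 mitotic and 5 of 12 S-phase genes, against 62.4% of all genes. In limma this contrast gave 0 genes with an adjusted p under 0.05, or 0% of all genes. At an unadjusted p under 0.05, higher, it gave 8 of 23 mitotic and 0 of 12 S-phase genes, against 2.23% of all genes. Lower, it gave 1 of the 40, the G1/S gene Ccnd1, against 1.68%. Both arrays numbered 2 were the lowest for 4 of 12 S-phase and 2 of 5 G1/S genes but 0 of 23 mitotic genes, against 5.33% of all genes. The difference between the lists was not itself tested.

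Against number 2, number 1 stood at a median of 0.70 for the mitotic genes and, as given above, 0.56 for the S-phase genes. None of the 40 genes passed the adjusted threshold in limma for number 1 minus 2, where 0.73% of all genes were called higher. At an unadjusted p under 0.05 the higher counts were 14 of 23 mitotic, 6 of 12 S-phase and 3 of 5 G1/S genes, against 8.46% of all genes, and 0 of the 40 were lower, against 8.25%. Relative to each gene's mean, the mitotic median was 0.66, -0.09 and -0.47 on irradiated arrays 1 to 3 and 0.61, 0.01 and -0.66 on control arrays 1 to 3. The S-phase median was 0.24, -0.32 and -0.11 on irradiated arrays and 0.52, -0.21 and -0.14 on control arrays. The mitotic median was thus lower on number 3 than on number 2 in both groups, while the S-phase median was not. Of the 18 genes with several tested probes, 2 had probes of opposite sign for number 1 minus 3 (Gins1 and Tyms), and 6 for number 1 minus 2.

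**Figure D4:**
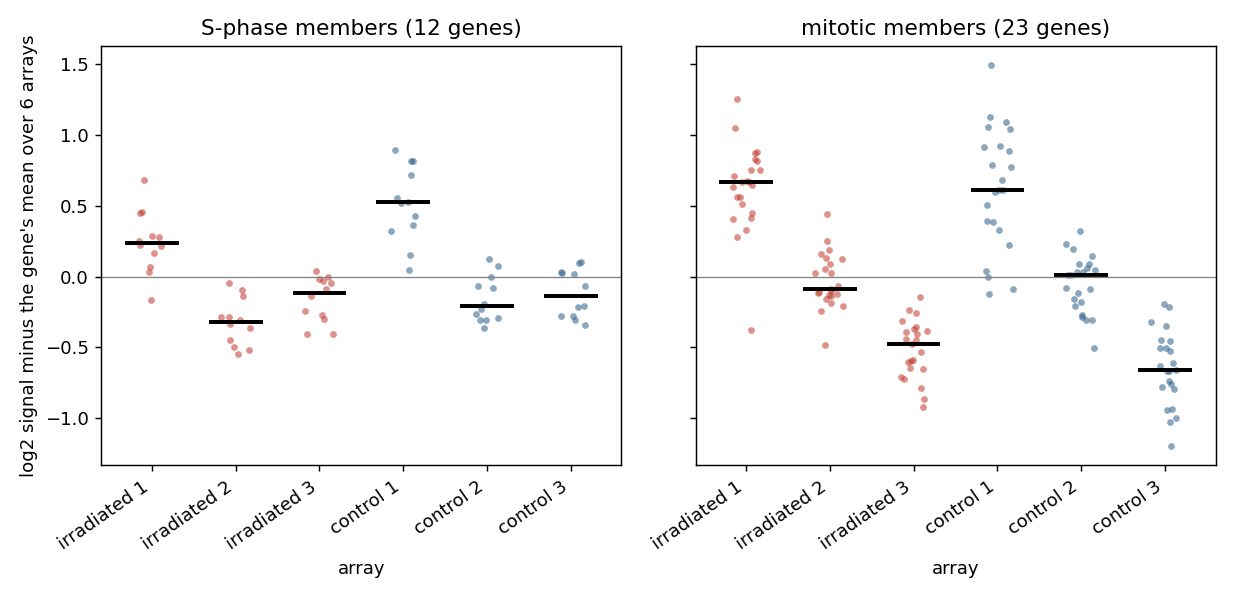
Log2 signal minus each gene's mean over 6 arrays (vertical axis) on the irradiated (red) and control (blue) arrays (horizontal axis) for the 12 S-phase and 23 mitotic genes, with 1 point per gene and a bar at the median. The mitotic medians are 0.66, -0.09 and -0.47 on the irradiated and 0.61, 0.01 and -0.66 on the control arrays, while the S-phase medians on numbers 2 and 3 all lie between -0.32 and -0.11.

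**Figure D5:**
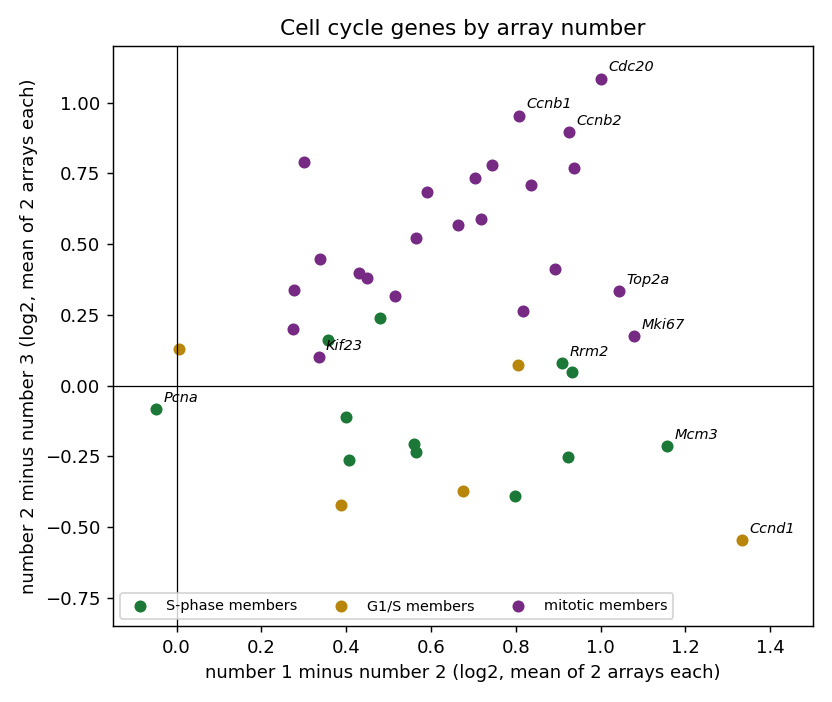
Number 1 minus number 2 (horizontal axis) against number 2 minus number 3 (vertical axis), in log2 with 2 arrays per number, for the S-phase, G1/S and mitotic genes. All 23 mitotic genes lie above 0 on the vertical axis, from 0.10 to 1.08, and the S-phase genes lie between -0.39 and 0.24.

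The promoters of the members were also searched for motifs. RefSeq promoters (build GRCm38.p6, 250 bases before to 50 after the transcription start) were at hand for 31 of the 40 genes and were searched on both strands. The motifs were CCAAT, the cell cycle homology region TTTGAA, and the E2F sites TTTGGCGC, TTTCGCGC, TTTCCCGC and TTTGCCGC, none of which contains another. TTTGAA was present in 75% of 20 mitotic promoters and 10% of 10 S-phase promoters, against 17.9% of all 32851 promoters. CCAAT was present in 90% of mitotic and 90% of S-phase promoters, against 37.4% of all. An E2F site was present in 5% of mitotic and 40% of S-phase promoters, against 2.26% of all. A gene with several starts counts once for each. A match describes letters in the window and does not show that a factor was bound there. Of the 14 mitotic genes with TTTGAA, all but Mki67 and Kif23 had both arrays numbered 3 lowest. Birc5, Bub1, Ccnb1, Cenpe and Nusap1 held no TTTGAA in the window and had both arrays numbered 3 lowest as well. Whether the motifs go with the pattern by number was not tested. Shown are the 2 mitotic genes called for number 1 minus 3 and the S-phase genes with the smallest F test p, Mcm3 and Rrm2, 5′ to 3′ on the gene's strand with each motif, on either strand, in capitals. They lie at chr10:69352863-69353162 (Cdk1, minus strand), chr13:100786437-100786736 (Ccnb1, minus strand), chr1:20820263-20820562 (Mcm3, minus strand) and chr12:24708004-24708303 (Rrm2, plus strand).
Cdk1: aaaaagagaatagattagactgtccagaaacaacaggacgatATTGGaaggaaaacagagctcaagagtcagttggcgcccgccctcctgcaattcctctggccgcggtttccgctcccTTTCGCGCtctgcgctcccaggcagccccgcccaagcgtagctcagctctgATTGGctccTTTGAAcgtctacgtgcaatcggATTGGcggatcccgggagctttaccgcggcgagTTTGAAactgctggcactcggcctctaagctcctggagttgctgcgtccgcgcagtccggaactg
Ccnb1: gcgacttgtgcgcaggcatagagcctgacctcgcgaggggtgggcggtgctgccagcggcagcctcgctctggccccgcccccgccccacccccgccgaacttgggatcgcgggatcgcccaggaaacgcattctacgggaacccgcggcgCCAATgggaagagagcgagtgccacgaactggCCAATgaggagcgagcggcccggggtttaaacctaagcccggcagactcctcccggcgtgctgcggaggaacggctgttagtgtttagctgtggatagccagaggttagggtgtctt
Mcm3: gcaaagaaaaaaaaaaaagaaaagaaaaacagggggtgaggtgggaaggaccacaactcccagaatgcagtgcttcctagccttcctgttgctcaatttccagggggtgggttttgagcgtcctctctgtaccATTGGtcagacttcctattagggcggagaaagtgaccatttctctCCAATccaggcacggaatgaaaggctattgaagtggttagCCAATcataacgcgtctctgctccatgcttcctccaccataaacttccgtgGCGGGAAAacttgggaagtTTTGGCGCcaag
Rrm2: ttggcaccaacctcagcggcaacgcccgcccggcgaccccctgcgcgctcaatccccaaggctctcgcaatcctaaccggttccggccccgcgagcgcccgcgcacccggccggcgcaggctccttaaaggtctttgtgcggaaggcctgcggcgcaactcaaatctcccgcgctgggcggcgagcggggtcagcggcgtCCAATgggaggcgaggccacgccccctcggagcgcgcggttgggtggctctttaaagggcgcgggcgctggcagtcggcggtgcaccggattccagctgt

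Cdk1 holds 3 CCAAT boxes (read as ATTGG on this strand), 2 copies of TTTGAA and 1 E2F site. Ccnb1 holds 2 CCAAT boxes and no TTTGAA in this window. Mcm3 holds 3 CCAAT boxes and 2 E2F sites, and Rrm2 holds 1 CCAAT box.

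Other genes of the pathway, from 5 further lists, were read in the same fits, and 139 of 140 were tested. Of 37 other replication genes, 0 passed the adjusted threshold for irradiated minus control in limma and 0 had an unadjusted p under 0.05 (median -0.08). Their medians by number were small, at 0.16 for number 1 minus 2 and 0.02 for number 2 minus 3, and both arrays numbered 1 were highest for 13 of 37, against 13.1% of all genes. For number 1 minus 3, 1 of the 37 was called higher at the adjusted threshold, against 1.15% of all genes. That was Tk1, thymidine kinase of the salvage pathway. It measured 0.06, -1.69 and -1.79 on irradiated arrays and 0.46, -1.46 and -1.91 on control arrays (2.11, adjusted p 0.037). Chaf1b, a chromatin assembly factor subunit, gave 1.19 (adjusted p 0.085). Dbf4 and Cdc7, the kinase pair that fires origins, had the smallest p for irradiated minus control, at -0.45 and 0.36.

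Of 60 other mitotic genes, both arrays numbered 3 were the lowest for 38, against 7.32% of all genes, and both numbered 1 the highest for 35, against 13.1%. They had medians of 0.43, 0.91 and 0.46 for number 1 minus 2, 1 minus 3 and 2 minus 3. For number 2 minus 3, 19 of 60 had an unadjusted p under 0.05, higher, beside the background given above. For number 1 minus 3, 1 of the 60 was called higher at the adjusted threshold in limma, against 1.15% of all genes. That was Fam64a, a regulator of the metaphase to anaphase step (1.83, adjusted p 0.0469). Anln, the actin-binding scaffold of the cleavage furrow, ran the other way, at 0.13, 1.84 and 1.25 on irradiated arrays and 0.20, 1.72 and 1.23 on control arrays (number 1 minus 2, -1.61, adjusted p 0.0511). For irradiated minus control, 1 of the 60 had an unadjusted p under 0.05, against 9.15% of all genes, so the count was not above the background. That was Hmmr, a spindle-associated protein, at -0.03, -0.24 and -0.36 in irradiated cultures and -1.08, -0.54 and -1.02 in controls (0.67, adjusted p 0.504). All 3 irradiated values of Hmmr lay above the controls, as for 3.85% of all genes. Cep55, which acts in the final cut between daughter cells, differed by -0.73 (adjusted p 0.504).

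Of 20 E2F, pocket protein and DREAM complex genes, 1 had an unadjusted p under 0.05 for irradiated minus control, against 9.15% of all genes, so the count was not above the background. E2f4, a repressive E2F of resting cells, measured -2.36, -2.23 and -1.95 in irradiated cultures, against -1.25, -1.26 and -1.89 in controls, with no overlap, as for 12.2% of all genes (-0.71, adjusted p 0.504). E2f7, an atypical E2F repressor, differed by -0.87. By number, Rbl1 (the pocket protein p107) gave 0.95 and Foxm1, an activator of G2/M genes, 0.79 for number 1 minus 3, short of the threshold (adjusted p 0.0976 and 0.166).

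Among 12 further cyclins and their kinases no gene passed in either comparison. Cdk7, which activates other cyclin-dependent kinases, and Cdk4, the partner of D-type cyclins, differed by 0.54 and -0.29 between irradiated and control cultures. Ccnd3 and Cdk2 gave 0.83 and 0.80 for number 1 minus 3. Among 10 inhibitors of these kinases, 1 was called higher on number 1 against both other numbers. Of all genes, 0.73% were called higher against number 2 and 1.15% against number 3. The inhibitor called was Cdkn2b (p15). It measured -0.34, -1.95 and -2.14 on irradiated arrays and -0.38, -2.29 and -2.18 on control arrays (1.76 against number 2, adjusted p 0.0471; 1.80 against number 3, adjusted p 0.0392). Cdkn2a (p16 and Arf) gave 1.48 and 1.46 (adjusted p 0.0689 and 0.0583). Cdkn1a (p21), which halts the cycle on damage, differed by -0.78 between irradiated and control cultures (adjusted p 0.504) and Cdkn2d by -0.39. Cdk1 and Ccnb1, which drive mitosis, and Cdkn2b, which inhibits G1 kinases, were thus each higher on number 1 than on number 3.

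Markers of the cell types in these cultures also varied by number. The 10 microglia markers were all measured, and their summed level was 36.0, 15.4 and 14.6 on irradiated arrays 1 to 3 and 35.5, 16.9 and 11.9 on control arrays 1 to 3. Both arrays numbered 3 were the lowest for 8 of those 10. The 8 astrocyte markers summed to 295, 168 and 141 on irradiated arrays and 416, 215 and 143 on control arrays. The progenitor markers, 7 of 8 measured, summed to 190, 160.0 and 154 on irradiated arrays and 201, 189 and 162 on control arrays. Vascular and fibroblast markers (5 of 6) summed to 5.37, 4.10 and 2.93 on irradiated arrays and 9.19, 4.80 and 3.32 on control arrays. All 4 of these sums were highest on number 1 and lowest on number 3 in each group, as were most of the mitotic genes. Gene by gene, both arrays numbered 1 were the highest for 9 of 10 microglia and 7 of 8 astrocyte markers. That held for only 2 of 7 progenitor and 2 of 5 vascular or fibroblast markers, against 13.1% of all genes. Both arrays numbered 3 were the lowest for 5 of 8 astrocyte, 2 of 7 progenitor and 3 of 5 vascular or fibroblast markers, against 7.32% of all genes. The neuronal sum was 301, 390 and 490 on irradiated arrays and 451, 523 and 486 on control arrays, lowest on number 1 in each group. Oligodendrocyte markers (6 of 6) summed to 116, 29.7 and 65.4 on irradiated arrays and 129, 23.9 and 78.1 on control arrays, lowest on number 2, as Ccnd1 was. The summed level of their precursors' markers (6 of 6) was lowest on number 1, at 83.7 and 91.1, against 136 to 152 on the other 4 arrays. Within that list, 2 of 6 markers were higher on number 1 than on number 2 in each group. Of the neuronal markers, 2 of 8 were so on irradiated and 3 of 8 on control arrays, against 47.2% and 48.6% of all genes. No marker measured was at 0; 1 vascular or fibroblast marker was well above background on no array. The part of these cell types in the result was not tested.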

How the data were processed

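Total RNA of 6 cultures was hybridised to 6 one-colour Agilent arrays, all on 1 slide and read in 1 scan. The authors deposited the scanner's spot intensity values, background-subtracted and detrended per the file headers (the submitters' processing notes name Agilent Feature Extraction 10.7.1.1), and a table of log2 values that they deposited with no tool named (medians of 5.91, rank correlation with the scanner signal of 0.997 on control 1 and 1 on the others). Here log2 processed signal was centred on each array's 75th percentile. Of 56605 probes, 10 without an unmarked spot on every array were left out, and 40552 well above background on at least 3 of 6 arrays were kept. The probe with the highest mean stood for each of 26157 gene names. Of the 73 member probes, 61 carried a RefSeq accession in the reference table, and all 61 had the same symbol there. Other probes were named as in the files; probe positions are mm9 per the file headers, and exons were not annotated in that build.

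Groups were compared with limma 3.58.1 (lmFit, eBayes; R 4.3.3), irradiated minus control without covariates, with Benjamini-Hochberg adjustment over all genes. Array number was tested in the same tool by a moderated F test and 3 contrasts with group as a term. Same-numbered arrays deviated together from their group means (correlations over genes of 0.53, 0.42 and 0.22 for numbers 1, 2 and 3), so the numbers in the titles were also used as a block. Among pairs of unlike number, irradiated 2 with control 3 gave 0.33, above the 0.22 of number 3, and irradiated 3 with control 2 gave 0.17. Pairs of number 1 with another number gave -0.48 to -0.25. The correlations thus do not set number 3 apart from number 2. The controls lay in row 1 of the slide, irradiated 1 in row 1 and irradiated 2 and 3 in row 2, so row and group overlap. The multiplicative trend fit was 0 on control 1, and 0.013 to 0.0383 on the others. The 40 genes, the other lists, the markers and the rule for the genes named were chosen with earlier results of these data known. Values on every array are given for Mki67, Top2a, Cdk1, Ccnd1, Mcm2, Pcna, the 6 members with the smallest p between groups and the 8 with the smallest F test p. From each other list the 2 genes with the smallest p in each test are given. Mcm3 and Rrm2 were added after their values were seen. Scripts were tested on simulated data. The number of arrays limits the precision.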

Additional observations from a re-analysis of the deposited data

How the results depend on the processing

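Over the alternatives run, no member gene passed the adjusted threshold between irradiated and control cultures. Over all genes 2 passed with quantile normalisation and 2 with the authors' deposited log2 table; leaving out any 1 array gave 0. The count of members at unadjusted p under 0.05, 0 as reported, was 1 with quantile normalisation, the deposited table, every probe as a feature, the replicate block and the replicate block with quantile normalisation, 2 with normexp background correction, 5 with the slide row as a block, and 0 to 1 with 1 array left out. Against the fit as reported, the block by number changed no other call. Combined with quantile normalisation it gave 0 of all genes past the adjusted threshold, where quantile normalisation alone gave 2. With the slide row as a block, which sets irradiated 1 alone against the controls, the S-phase median was 0.19 and the mitotic median 0.65; with 1 array left out they ranged from -0.37 to 0.08 and from -0.30 to 0.36. Normexp turned the mitotic median to -0.04. Without both arrays numbered 1 the medians were -0.12 and 0.08. For array number, the F test over all genes (162) gave 0 with no filter on dim probes, 351 with probes well above background on all 6 arrays, 1 with every probe a feature, 347 without the group term, and 0 to 510 with 1 array left out: 0 without irradiated 3 or control 3, 68 without control 1 and 510 without irradiated 1. Members called for number 1 minus 3 (2) became 5 with quantile normalisation, the deposited table, the mean of a gene's probes and the 75th percentile over probes detected on all arrays, 10 with the stricter filter, 7 without the group term, and 0 with no filter or with every probe a feature; with 1 array left out they were 0 to 4. With 1 array left out, members called by the F test were 0 to 1 and those at unadjusted p under 0.05 (23) were 16 to 22. The count at unadjusted p was 21 to 27 under the other settings counted by gene, and 40 of 69 with every probe a feature. With 1 array left out the mitotic medians ranged from 0.60 to 0.78 (number 1 minus 2), 1.21 to 1.33 (1 minus 3) and 0.46 to 0.67 (2 minus 3), and the S-phase medians from 0.51 to 0.70, 0.30 to 0.55 and -0.18 to -0.011. Normexp gave mitotic medians of 0.61 and 1.12 for number 1 minus 2 and 1 minus 3, and the mean of a gene's probes gave an S-phase median of -0.032 for 2 minus 3. S-phase genes with both arrays numbered 3 lowest (2) were 1 with the mean of probes, 4 with the percentile over detected probes and 4 with every probe a feature. Counted as probes, mitotic features numbered 29 with number 1 highest and 36 with number 3 lowest. Of 1234 other values, 1150 stayed on the same side of the threshold or moved little, 27 newly passed, 33 no longer passed and 24 counts or medians moved. None that passed in either setting reversed its sign (0 reversed). A value that passed in neither setting could change sign and still be counted among the 1150. Where leaving out an array left 1 per number, that array was taken to vary like the others. The causes were not tested. Few arrays and dim probes such as Ccne2 limit what could be detected.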
